A study of Mus musculus with 2 samples.

Results

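The Mir297, Mir466, Mir467 and Mir669 genes form a family of related microRNA hairpins found in rodents, most of them packed into 1 intron of the gene Sfmbt2. Members were taken by name: a counted gene belonged if its symbol in the mouse annotation GENCODE M21 began with Mir297, Mir466, Mir467 or Mir669, followed by a letter, a hyphen or nothing. This gave 69 of 1973 counted genes, of which 59 lie within Sfmbt2 on chromosome 2 and 10 lie elsewhere. M21 names 12 further genes of the family, all within Sfmbt2, which were not analysed here.

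The tissue was liver of healthy mouse embryos of strain B6NCrl at day 13.5, for which the labels name no genetic change. Small RNA below 30 bases was sequenced from 2 biosamples numbered as biological replicates, each labelled as mixed sex embryo. The labels give 1 group and no treatment, so the report describes levels in 1 tissue. Counts in annotated genes, on the gene's own strand, totalled 2607403 in replicate 1 and 4286742 in replicate 2. Levels are given as CPM, counts relative to these totals times 1000000. Reads that mapped to several places (36.7% of all reads in replicate 1 and 32.0% in replicate 2) were not assigned to any gene, and 67 of the 69 members share sequence with another annotated hairpin, so their values are uncertain.

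A microRNA is cut from one arm of a hairpin in a longer transcript, and its seed, bases 2 to 8 of the mature strand, does most of the target pairing. Sfmbt2 encodes a polycomb group protein, is imprinted in the mouse with expression from the paternal allele, and is needed in the placenta. The microRNA block in its intron arose by repeated local duplication and is absent from the human gene. Its products have been described in placenta, early embryos and embryonic stem cells.

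RefSeq (GRCm38.p6) held mature sequences for 8 of the 69 members, all of them outside Sfmbt2. They are shown because they display the simple repeats that run through the family, with the seed in capitals.

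miR-466q: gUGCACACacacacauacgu
miR-466i-3p: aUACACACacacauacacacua
miR-467f: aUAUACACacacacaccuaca
miR-467g: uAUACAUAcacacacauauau
miR-466k: uGUGUGUGuacauguacauguga
miR-466j: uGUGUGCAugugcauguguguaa
miR-467h: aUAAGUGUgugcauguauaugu
miR-669n: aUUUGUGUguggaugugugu

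The first 4 are built on CA repeats and the last 4 on GU repeats. Purines and pyrimidines alternated over 8 to 22 bases in a row in these 8 sequences, with a median of 20, against a median of 4 over the 1730 RefSeq mature sequences of other genes. A run of at least 8 bases occurred in 2.83% of those. No 2 of the 8 shared a seed. One seed recurred outside the family: miR-668-5p, from the Mir668 hairpin in the imprinted cluster on chromosome 12, has the seed of miR-467h. Mir668 had 280 counts in replicate 1 and 608 in replicate 2, while Mir467h had 0 in both. These counts are of whole genes and do not tell which arm the reads came from.

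The same alternation ran through the hairpins of the whole family. The longest alternating stretch of a member's hairpin was 12 to 101 bases, with a median of 26. In 1825 other counted microRNA genes it was 2 to 122 bases, with a median of 6. The stretch of 101 bases was in Mir467g, which lies outside Sfmbt2. Median GC content was 37.2% in members, against 51.7% in the other microRNA genes.

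The family had a modest share of the counts in embryonic liver, and nearly all of its counts came from Sfmbt2. Counts leave out reads mapped to several places, so for this family of copies the counts are a lower limit. CPM and percent are not, since the totals leave out such reads too. For each family count, 181 reads in replicate 1 and 167 in replicate 2 mapped to several places. How many of these reads came from the family was not tested. Its summed count was 15603 in replicate 1 and 24102 in replicate 2, or 5803 ± 256 CPM (SD, n = 2). That was 0.598% of counts in replicate 1 (exact Clopper-Pearson 95% interval 0.589% to 0.608%) and 0.562% in replicate 2 (0.555% to 0.569%). These intervals, and the limits given for a count of 0, reflect counting error alone, as amplified copies of a molecule were not told apart. Members within Sfmbt2 supplied 15600 of the 15603 counts in replicate 1 and all 24102 in replicate 2.

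Few members carried this sum. At least 10 counts in each library, the rule for a detected gene, were found for 10 of the 69 members (14.5%), against 18.6% of all 1973 genes. All 10 lie within Sfmbt2. At least 1 count in each library was found for 16 members, against 28.3% of all genes. Below the detection rule, 13 members had 1 to 6 counts in at least 1 library, adding 27 counts in replicate 1 and 27 in replicate 2, and 46 members had no count in either. The 10 detected members held 99.8% of the family's counts in replicate 1 and 99.9% in replicate 2. The first 5 of them held 97.2% and 96.1%.

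**Figure D1:**
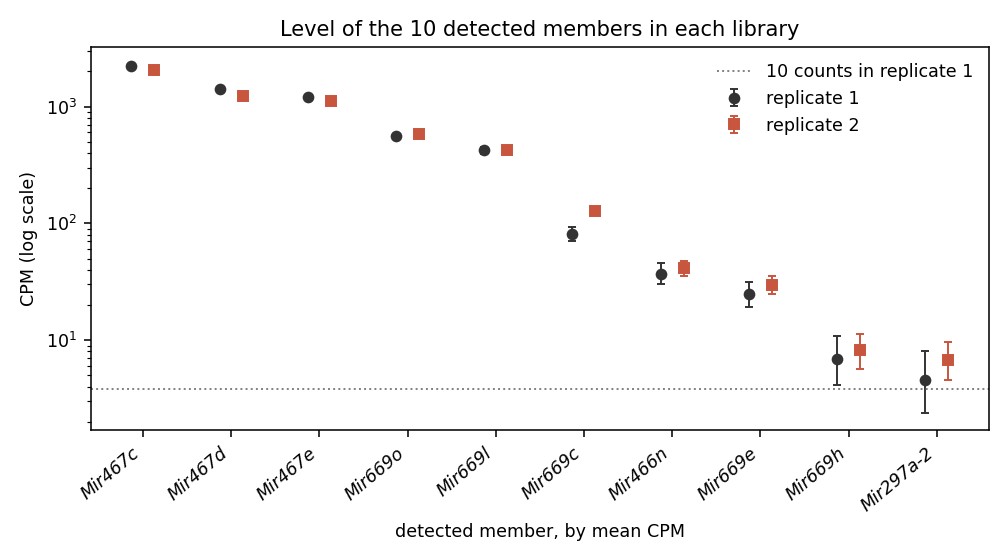
CPM of each detected member (log axis) in replicate 1 (circles) and replicate 2 (squares), with exact 95% counting intervals, some smaller than the symbol. The dotted line marks 10 counts in replicate 1. Mir467c, Mir467d and Mir467e lie at 1123 CPM or more in both libraries, and Mir669h and Mir297a-2 lie near the line.

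By name, the Mir467 genes led in counts. They summed to 12632 counts in replicate 1 and 18873 in replicate 2, or 4624 ± 313 CPM (SD, n = 2). The Mir669 genes followed with 2847 and 5009 counts, or 1130.2 ± 54.2 CPM. The Mir466 genes, the most numerous with 25 members, gave 111 and 191 counts, or 43.6 ± 1.40 CPM. The 6 Mir297 genes gave 13 and 29 counts, or 5.88 ± 1.26 CPM. This order held in both libraries. It is an order of counts from reads mapped to 1 place. How far sequence shared with other hairpins, described below, lowers the count of each group was not tested. Detected were 3 of 17 Mir467 genes, 5 of 21 Mir669 genes, 1 of 25 Mir466 genes and 1 of 6 Mir297 genes.

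Mir467c had the most counts of the members (ENSMUSG00000077049.2, chromosome 2, 10473931 to 10474027, plus strand, mm10). It had 5793 counts in replicate 1 and 8797 in replicate 2, or 2137 ± 119.9 CPM (SD, n = 2), and ranked at place 70 of all 1973 genes. Mir467d (10507630 to 10507714) had 3670 and 5258 counts, or 1317 ± 128 CPM, and Mir467e (10505721 to 10505807) had 3162 and 4813 counts, or 1168 ± 63.6 CPM. These 3 genes together held 80.9% of the family's counts in replicate 1 and 78.3% in replicate 2. Mir467c exceeded Mir467d by 1.58-fold in replicate 1 (95% counting interval 1.51 to 1.65) and by 1.67-fold in replicate 2 (1.62 to 1.73). Mir467d and Mir467e lay close together, at a ratio of 1.16 (1.11 to 1.22) and of 1.09 (1.05 to 1.14), with the same order in both libraries. The mean of Mir467d exceeded that of Mir467e by little more than the SD of Mir467d. The share of 20-base words found in no other hairpin, described below, was 60.3% for Mir467c, 37.9% for Mir467d and 57.4% for Mir467e. How far this bears on the order and ratios of their counts was not tested.

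The Mir669 members were next. Mir669o (10514300 to 10514395) had 1451 counts in replicate 1 and 2473 in replicate 2, or 567 ± 14.4 CPM (SD, n = 2). Mir669l (10468971 to 10469068) had 1097 and 1817 counts, or 422 ± 2.22 CPM. Mir669o was the higher in both libraries, by 1.32-fold (95% counting interval 1.22 to 1.43) and 1.36-fold (1.28 to 1.45), although the genes lie 45.3 kb apart at opposite ends of the block. Mir669c (10509296 to 10509404) had 211 and 549 counts, or 104 ± 33.3 CPM, the largest SD relative to its mean among the 10. Mir669l exceeded Mir669c by 5.20-fold in replicate 1 but by 3.31-fold in replicate 2.

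The remaining detected members had few counts. Mir466n (10513741 to 10513834), the only detected Mir466 gene, had 97 counts in replicate 1 and 177 in replicate 2, or 39.2 ± 2.89 CPM (SD, n = 2). Mir669e (10467495 to 10467613) had 65 and 127 counts, or 27.3 ± 3.32 CPM. Mir669h (10518155 to 10518279) had 18 and 35 counts, or 7.53 ± 0.892 CPM. Mir297a-2 (10472254 to 10472343), the only detected Mir297 gene, had 12 and 29 counts, or 5.68 ± 1.53 CPM. The order of Mir669h and Mir297a-2 is not firm, since the counting interval of their ratio ran from 0.684 to 3.41 in replicate 1 and from 0.717 to 2.05 in replicate 2. The plot of levels in each library shows a fall of over 2 orders of magnitude from Mir467c to these genes.

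The 59 members within Sfmbt2 form a single block in 1 intron. Sfmbt2 spans 224.7 kb of chromosome 2 (10370510 to 10595253, plus strand), and the block takes up 51.6 kb of it (10466663 to 10518279). All 59 lie on the strand of Sfmbt2, in intron 10 of the coding transcript Sfmbt2-201, which is 62472 bases long. Consecutive members were 139 to 4506 bases apart, with a median of 314. No member had a count on the opposite strand in either library.

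Detected members stood at the flanks of the block. The first 13 members held 4 detected genes (Mir669e, Mir669l, Mir297a-2 and Mir467c), and the last 20 held 6 (Mir467e, Mir467d, Mir669c, Mir466n, Mir669o and Mir669h). Between them lay 26 members in a row, from Mir669a-3 to Mir466b-3 (10474433 to 10503645, 29.2 kb), none of them detected. These 26 gave 12 counts in replicate 1 and 15 in replicate 2, and 22 of them gave none. Of the 12 family genes not analysed here, 10 also lie in this stretch. Undetected genes also lay between detected ones at the flanks: Mir466n and Mir669o were the only detected genes that were direct neighbours. Mir466p, between Mir467e and Mir467d, had no count.

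**Figure D2:**
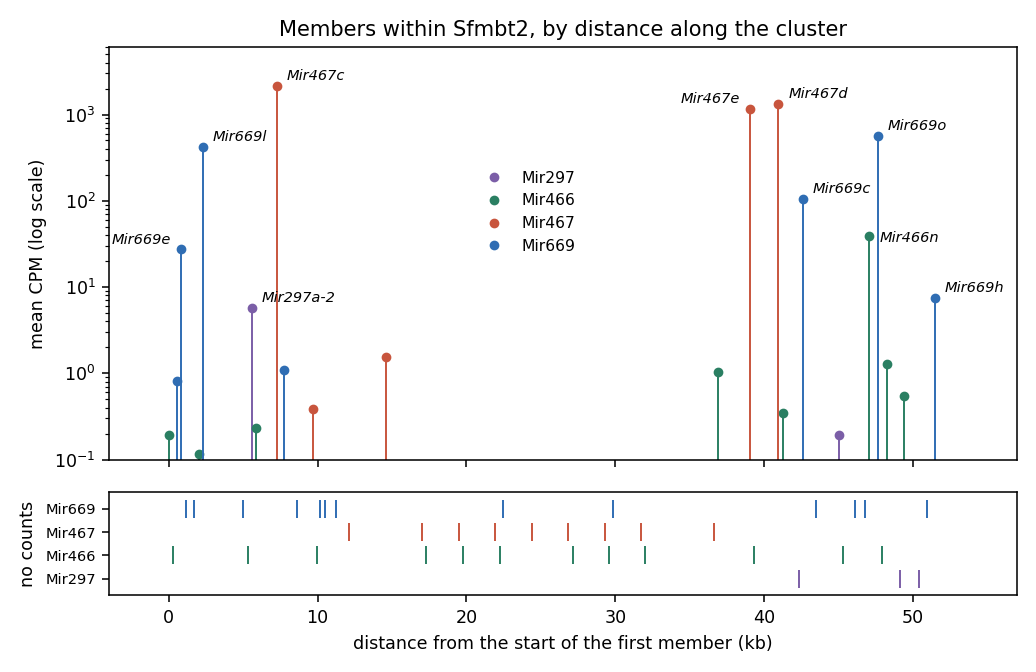
Upper panel: mean CPM of the 2 libraries (log axis) for each member within Sfmbt2 that had a count, by distance in kb from the start of the first member and coloured by name. Lower panel: members with no count in either library, 1 row per name. The 10 detected members, which carry labels, stand at both flanks, and the middle holds mostly members without counts.

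Most hairpins of the undetected middle were near or exact copies of others. To describe this, each hairpin was split into all its words of 20 bases, and each word was searched on both strands in the 2202 microRNA hairpins of M21. Words in no other hairpin are called the member's own. Of the 69 members, 20 had no own word and 17 had a hairpin identical to another. All 20 lie within Sfmbt2, 19 of them in the middle stretch, and all 17 lie in that stretch too. The 20 members gave 2 counts in replicate 1 and 0 in replicate 2. The 17 gave none. An exact read of 20 or 22 bases from any of the 20 also matches another hairpin, so it was not counted. The counts near 0 of these 20 members thus do not measure their level.

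Members within Sfmbt2 were also sorted by their share of own words. Only reads mapped to 1 place were counted, so fewer own words leave fewer reads to count in every class. The classes thus describe the counts and test nothing. None of the 20 members without an own word was detected, which the counting all but fixed in advance. None of 5 members with up to 25% was detected either. Of 21 members with 25% to 50%, 2 were detected, Mir467d at 37.9% and Mir297a-2 at 32.4%. Of 13 members with more than 50%, 8 were detected: Mir467c at 60.3%, Mir467e at 57.4%, Mir669h at 65.1%, Mir466n at 52.0%, Mir669l and Mir669o at 50.6%, Mir669c at 81.1% and Mir669e at 95%. These classes depend on the words used. In searches chosen after seeing the data, with words of 18 bases, 5 of 10 members above 50% and 5 of 21 between 25% and 50% were detected, and with 20-base words searched in all annotated transcripts 6 of 11 and 4 of 21. Among detected members, Mir467d with 37.9% stood at 1317 CPM and Mir669e with 95% at 27.3 CPM. How the level goes with this share was not tested, and shared sequence bears on both values. All 10 detected members shared at least 1 word with another hairpin, from 1 hairpin for Mir669e to 56 for Mir669o, so all their counts are uncertain. For the members with own words, the part of reads mapped to several places in their counts of 0 was not tested.

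**Figure D3:**
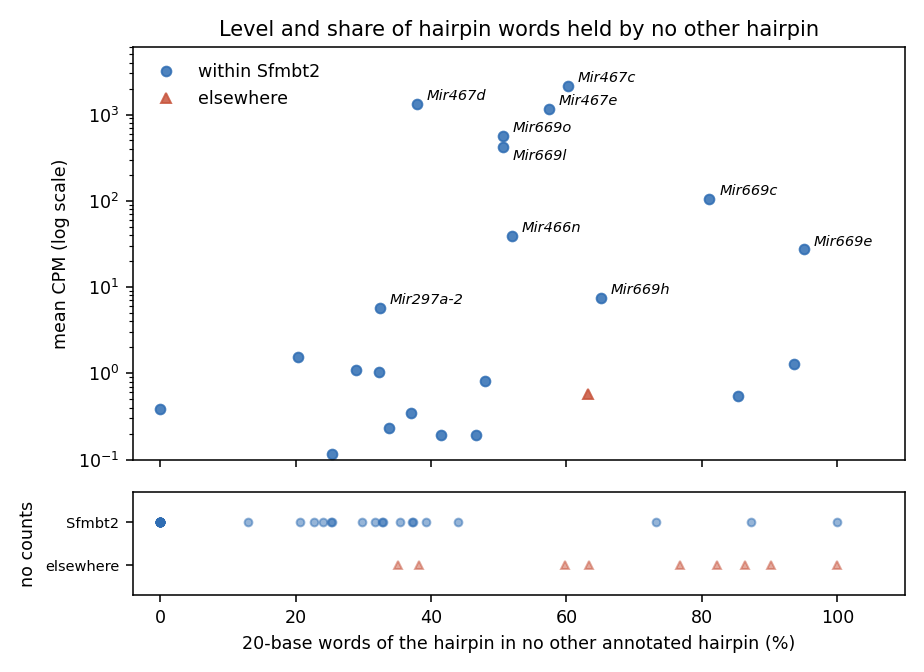
Upper panel: mean CPM (log axis) of members with a count against the percent of their 20-base words that no other annotated hairpin holds, within Sfmbt2 (circles) and elsewhere (triangles). Lower panel: members with no count in either library. Every detected member has at least 32.4% own words, and all 9 members elsewhere without a count have at least 35.1%.

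The Mir467 genes held members of both kinds, with and without own words. The 10 copies Mir467a-1 to Mir467a-10 had no own word, and together they gave 2 counts in replicate 1 and 0 in replicate 2. Mir467b, with 20.4% own words, had 5 and 5 counts. Mir467c, Mir467d and Mir467e gave 12625 and 18868. The hairpins of Mir467d and Mir467e were 92.0% identical, and that of Mir467c was 83.5% and 83.7% identical to them. The undetected hairpin closest to Mir467d was Mir467a-9, at 85.4%. Among the Mir669 genes, the hairpin of Mir669o was 92.8% identical to that of Mir669a-1, which had no own word and no count. Mir297a-2 was 89.8% identical to Mir297a-4, which had no count and 22.8% own words.

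Members outside Sfmbt2 were almost silent in these counts. Of the 10, only Mir466q had a count, 3 in replicate 1 and 0 in replicate 2. It lies in an intron of Tnik on the same strand (chromosome 3, 28419943 to 28420018). The other 9 had 0 counts in both libraries, which allows up to 1.15 CPM each in replicate 1 and 0.700 CPM in replicate 2 for reads that map to 1 place. Mir466k (chromosome 3, 85467377 to 85467498), Mir669n (chromosome 3, 115979902 to 115979955), Mir467g (chromosome 5, 34732853 to 34732972), Mir467f (chromosome 11, 69635400 to 69635519) and Mir466i (chromosome 13, 17747473 to 17747593) lie in introns of Gm37240, Slc30a7, Grk4, Fxr2 and Cdk13, each on the strand opposite to that gene. Mir297-1 (chromosome 7, 10958437 to 10958512), Mir467h (chromosome 9, 115381819 to 115381939), Mir466j (chromosome 10, 60960723 to 60960844) and Mir466f-4 (chromosome 13, 71107089 to 71107209) lie between annotated genes.

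The median share of own words was higher for these genes than for the undetected members of the block. All 10 had own words, from 35.1% to 100% with a median of 70.0%, and 8 had more than 50%. The 49 undetected members within Sfmbt2 had a median of 24.1%. With words searched in all annotated transcripts, the 10 genes outside Sfmbt2 ran from 26.73% to 97.14%, with a median of 61.96%. The 49 undetected members had a median of 20% in that search, which was chosen after seeing the data. Each of the 10 genes shared words with 0 to 127 other hairpins, with a median of 23. Repeats of the genome outside annotated hairpins were not searched, so the share of own words is an upper limit. It also covers the whole hairpin, and which own words lie in a mature arm was not tested. A high share thus does not show that mature reads map to 1 place, nor that a count of 0 is an absence. Within Sfmbt2 itself, Mir466g with 100% and Mir669b with 87.2% own words also had 0 counts. Mir466h with 93.5% had 6 and 1 counts, and Mir466l with 85.3% had 1 and 3.

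For each of the 711 genes with a count, the way its counts divided between the replicates was set against the library totals by an exact binomial test (two-sided, Benjamini-Hochberg adjustment over the 711). This test compares 2 libraries and no conditions. Its p-values, like the intervals, reflect counting error alone and treat reads as independent molecules, so they do not measure the spread between biosamples. With a threshold of 0.05 on the adjusted p, 20.1% of these genes were called. In replicate 2, 8.58% were higher and 11.5% were lower. Of 23 members with a count, 4 were called, 1 higher and 3 lower. All 4 were among the 10 detected members, where 37.6% of all 367 detected genes were called. These shares are near the background.

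The 3 Mir467 genes were slightly lower in replicate 2. Mir467c went from 2222 to 2052 CPM, a log2 difference of -0.11 (95% counting interval -0.16 to -0.07, adjusted p = 2.60e-05, exact binomial test). Mir467d went from 1408 to 1227 CPM, a log2 difference of -0.20 (-0.26 to -0.14, adjusted p = 2.54e-09, exact test). Mir467e went from 1213 to 1123 CPM, a log2 difference of -0.11 (-0.18 to -0.05, adjusted p = 0.0055, exact test). The call for Mir467e was lost with TMM library sizes (adjusted p = 0.074, exact test) and with DESeq2 size factors (adjusted p = 0.0576, exact test).

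Mir669c moved the other way and farther. It went from 80.9 to 128 CPM, a log2 difference of 0.66 (95% counting interval 0.43 to 0.90, adjusted p = 6.73e-08, exact binomial test). The other 6 detected members were not called, with log2 differences from 0.01 for Mir669l to 0.56 for Mir297a-2, the latter on 12 and 29 counts. Mir669l and Mir669o, at 0.01 (-0.10 to 0.12) and 0.05 (-0.04 to 0.15), differed the least. The median absolute log2 difference of the 10 detected members was 0.17, and that of all 367 detected genes was also 0.17.

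**Figure D4:**
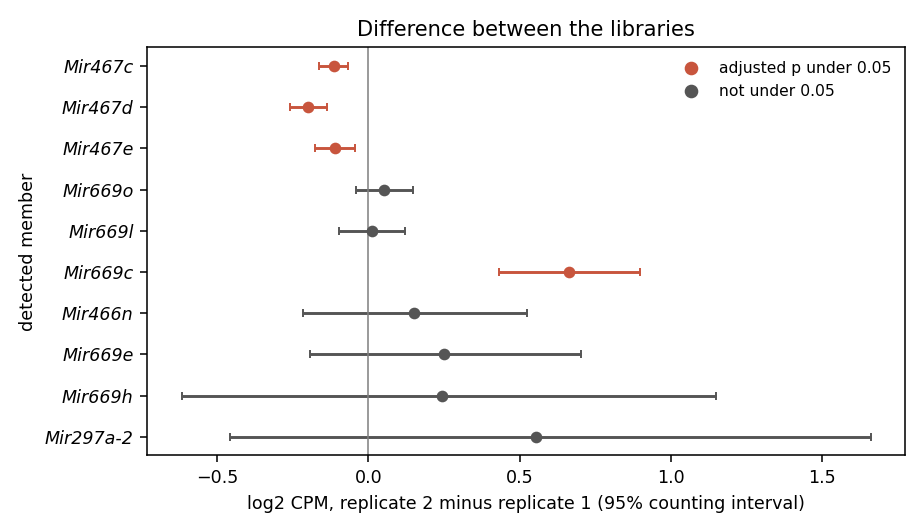
Log2 CPM of replicate 2 minus replicate 1 for the 10 detected members, with exact 95% counting intervals. Members with an adjusted p under 0.05 are in red: Mir467c, Mir467d and Mir467e lie just left of 0 and Mir669c lies at 0.66. Intervals widen toward the members with few counts at the bottom.

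For scale, other imprinted and embryonic microRNA clusters were read from the same libraries. The Mir379 to Mir410 genes on chromosome 12, likewise a large imprinted block but expressed from the maternal allele, summed to 318227 counts in replicate 1 and 517350 in replicate 2, or 121367 ± 963 CPM (SD, n = 2). Of its 33 counted genes, 30 were detected, led by Mir411 at 21670.0 ± 369.6 CPM and Mir487b at 20864 ± 1487 CPM. All 5 genes of other imprinted hosts were detected, led by Mir335 in Mest at 40942 ± 3741 CPM and Mir296 at 4195 ± 564 CPM. The Mir290a to Mir295 cluster, active in embryonic stem cells and trophoblast, summed to 530 and 770 counts, or 191 ± 16.7 CPM. Of its 6 counted genes 5 were detected, led by Mir293 at 102 ± 9.99 CPM and Mir294 at 52.6 ± 4.79 CPM. The family's summed counts thus lay below the first 2 sets and above the third in both libraries. All these sums leave out reads mapped to several places, so this is an order of counts and not of full levels. The sets hold different numbers of genes and of copies, and their differences were not tested.

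Every marker listed for hepatocytes, red cells, endothelium and myeloid cells was detected. The hepatocyte list (Mir122, Mir192, Mir194-1 and Mir194-2) had a sum of 83521 CPM in the first library and 84283 CPM in the second. The endothelial microRNA Mir126a stood at 57502 and 54545 CPM, and the myeloid Mir223 at 10021 and 10163 CPM. The erythroid list (Mir451a, Mir144 and Mir486) summed to 17989 and 33035 CPM. Of these, Mir451a was higher in replicate 2, at 10749.8 and 26342 CPM, while Mir144 stood at 6405 and 5873 CPM and Mir486 at 834 and 819.5 CPM. Whether the level of Mir451a goes with the differences of Mir669c and the Mir467 genes was not tested. In whole tissue, fewer cells of a type and less RNA per cell cannot be told apart.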

How the data were processed

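The authors deposited raw read counts per gene for 2 small RNA libraries, on mm10 with GENCODE annotation M4 per the deposited lists of files. For the aligner and counting tool, the sources used here give no name. Of the 3 columns, the one taken as the gene's own strand was used. No source names the columns. The strand was inferred from the far larger number of reads assigned in it than in the column taken as the opposite strand. Rows for unmapped, multiply mapped and unassigned reads (19.6%, 36.7% and 5.72% of reads in replicate 1; 24.2%, 32.0% and 5.64% in replicate 2) stayed out of totals. Names, positions and hairpins came from GENCODE M21 on the same build, which matched 1894 of 1973 identifiers. The members and lists were chosen with earlier results of these data known. Members named have at least 10 counts in each library, were called between the libraries, or have their sequence shown, with the 2 highest of each comparison list. Mir467b, Mir466g, Mir669b, Mir466h, Mir466l, Mir466p, all members outside Sfmbt2 and the closest copies of detected members were named after their values were seen.

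A search for shared mature sequences was planned, but they were at hand for only 8 members, so words of 20 bases of the hairpins took its place. This also left seed partners of detected members not analysed here. Hairpin identity is from global alignment in Biopython 1.88, and fold energies are from RNAfold 2.7.2. The binomial test and intervals used scipy 1.17.1 in Python 3.11.15, and the test was checked on simulated counts. edgeR 4.0.16 (TMM) and DESeq2 1.42.0 gave other scalings. A count of 0 allows up to 3 counts, or 1.15 CPM in replicate 1 and 0.700 CPM in replicate 2. Levels carry no p-value, as the smallest that 2 libraries allow (two-sided, exact) is 0.5.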

Additional observations from a re-analysis of the deposited data

How the results depend on the processing

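Of 48 alternative values of the main results, 36 stayed within the spread between replicates or within 1.5 times the count. Another 16, levels and shares from 1 library alone, cannot leave that spread with 2 libraries and show nothing about stability. Some of the 36 could hardly move either. TMM and DESeq2 library sizes were set to the same geometric mean as the totals, which nearly fixes a mean of 2 libraries. All members within Sfmbt2 lie on its strand and no member had a count on the opposite strand. The alternatives on strand thus could not change the share within Sfmbt2 or the detected members. From single libraries the family sum was 5622 and 5984 CPM. Counting both strands enlarged the totals but added no count to a member, so the family sum went from 5803 to 5197 CPM, the members within Sfmbt2 from 5803 to 5197 CPM, and the Mir466, Mir467 and Mir669 sums to 39.0, 4141 and 1012 CPM. Scaled to all reads, with unmapped and multiply mapped reads in the total, the family sum was 1977 CPM, the members within Sfmbt2 1977 CPM, and the Mir297, Mir466, Mir467 and Mir669 sums 2.00, 14.8, 1575 and 385.04 CPM. With at least 1 count in each library 16 members were detected in place of 10. TMM and DESeq2 scaling shifted all log2 differences by 0.03 and ended the call of Mir467e only, so 3 members were called in place of 4. Words of 18 or 22 bases, or words searched in all annotated transcripts, alternatives chosen after seeing the data, left all 10 detected members with own words and 20 members with none, but moved members between the classes of own words: detected members between 25% and 50% numbered 2 in the main search and 5, 2 and 4 in these. Without replicate 1 or replicate 2, the share of family counts within Sfmbt2 ran from 99.98% to 100%. Alternatives on shared mature sequences were not run, since few members had one at hand. No paired analysis was possible because all samples belong to 1 group.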

Other observations

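The minimum free energy of folding of the 10 detected hairpins ran from -53.9 kcal/mol for Mir466n to -28.9 kcal/mol for Mir467c, with a median of -39.4, and the 49 undetected hairpins within Sfmbt2 ran from -49.8 to -22.7 with a median of -38.1. Divided by hairpin length, the weakest of the 10 was Mir669h at -0.26 kcal/mol per base, and Mir467c stood at -0.30 kcal/mol per base. The 10 hairpins outside Sfmbt2 had a median of -40.6 kcal/mol. They were longer, with a median of 120.5 bases against 96.5 for the detected members and 89 for the undetected ones of the block, and richer in G and U (a median of 65.8% against 48.0% and 49.4%). Their longest alternating stretch also had the highest median, 40 bases against 26 and 24. These are descriptions with no test.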
